A study of Mus musculus with 6 samples.

Results

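The cytosolic ribosomal protein genes are the nuclear genes for the proteins of the large (60S) and small (40S) subunits of the cytoplasmic ribosome. They were taken by name: every row whose gene symbol is Rpl or Rps followed by digits, with an optional suffix a, x or l, plus Rplp0, Rplp1, Rplp2 and Rpsa, without the Rps6k kinases and the rows named as pseudogenes. This gave 83 of the 55487 gene rows, 51 of the large and 32 of the small subunit. The annotation calls 80 of them protein coding and gives Rpl6l, Rpl32l and Rps4l as pseudogenes. A filter on low counts kept 79 of the 83 among 14427 genes tested. The 4 that did not pass were Rpl3l, Rpl39l, Rpl10l and Rpl32l.

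RNA was sequenced from CD45+ cells, given in the labels as total hematopoietic cells, of wild-type C57BL6/J mice; CD45 is the common surface marker of leukocytes. There were 3 libraries from the mesenteric lymph node (mLN) and 3 from the spleen, all from cells used fresh, with polyadenylated RNA selected. The labels give no age and leave unsaid whether the libraries of 1 tissue are from different mice; the p-values then rest on a spread between libraries that may be technical only. The libraries held 12584244 to 18119551 counts. Ptprc, the gene for CD45, stood at 2652 to 2715 CPM (counts scaled to a library of 1000000) in mLN and 2161 to 2235 CPM in spleen. The marker lists of cell types differed between the tissues throughout. Summed T-cell markers held 3275 to 3305 CPM in mLN and 1369 to 1404 in spleen, and B-cell markers 3582 to 3641 in mLN and 6182 to 6340 in spleen. Plasma-cell markers held 400 to 419 CPM in mLN and 1061 to 1069 in spleen. Erythroid markers held 18.3 to 24.5 CPM in mLN and 2279 to 2379 in spleen, and neutrophil markers 1.74 to 2.83 in mLN and 1439 to 1473 in spleen. Late red-cell precursors lose CD45, and which cells gave the erythroid counts was not tested. Car1 among the erythroid genes, and Elane and Ly6g among the neutrophil genes, had no counts in mLN. Cell-cycle genes held 607 to 636 CPM in mLN and 1103 to 1140 in spleen. All 10 T-cell markers rose in mLN (edgeR adjusted p under 0.05), against 21.8% of all genes tested. In turn, 6 of 7 plasma-cell markers and all 10 markers of each other list fell, against 23.8% of all genes tested. The part of these differences in the results that follow was not tested.

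Each ribosome carries 1 copy of most ribosomal proteins, and the cell makes both subunits in matched amounts. Most mammalian ribosomal protein mRNAs begin with a C followed by a run of pyrimidines, the terminal oligopyrimidine (TOP) tract, through which growth signals acting by mTOR and the RNA-binding protein Larp1 control their translation. Lymphocytes raise ribosome production when they are activated and leave rest, and several ribosomal proteins have roles outside the ribosome, among them control of p53.

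Ribosomal protein mRNAs made up a larger share of the RNA in mLN than in spleen. They took 7.65, 7.61 and 7.53% of all counts in the 3 mLN libraries and 6.13, 6.22 and 6.21% in the 3 spleen libraries. Every mLN library lay above every spleen library, with means of 7.60 ± 0.0619% in mLN and 6.18 ± 0.0510% in spleen (SD, n = 3 each), a ratio of 1.23. The large-subunit genes held 4.38 ± 0.0512% in mLN and 3.60 ± 0.0262% in spleen, and the small-subunit genes 3.22 ± 0.0156% in mLN and 2.59 ± 0.0248% in spleen. In TPM, transcript abundances that account for length, these short transcripts held 24.0 ± 0.111% of the total in mLN and 19.7 ± 0.0487% in spleen. In bulk RNA, a different mix of cell types and a different amount of these mRNAs per cell cannot be told apart.

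**Figure D1:**
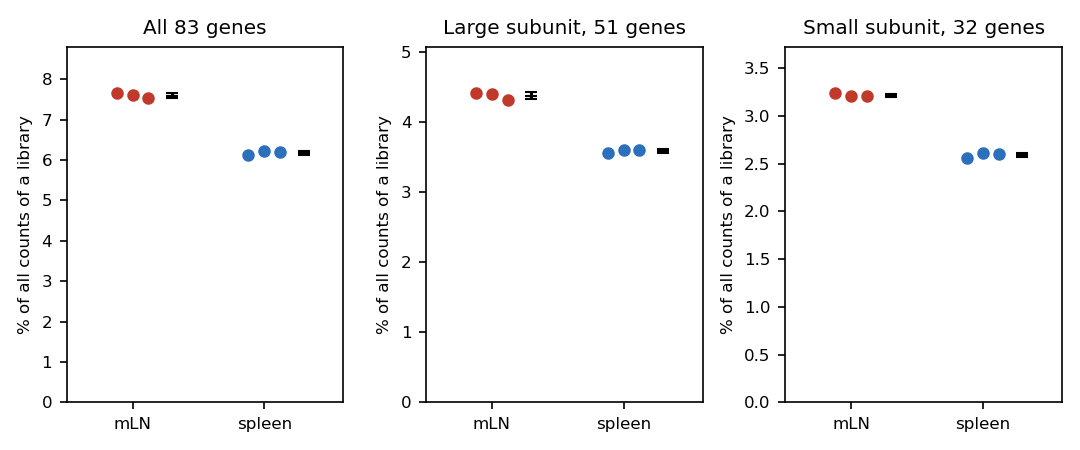
Share of all counts of a library (vertical axis, percent, from 0) held by all 83 cytosolic ribosomal protein genes, by the 51 large-subunit genes and by the 32 small-subunit genes, with 1 point per library for mLN and spleen and the mean ± SD (n = 3) beside the points. In each panel the 3 mLN libraries lie above the 3 spleen libraries, at 7.60% and 6.18% on average for all genes.

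Nearly the whole set rose, each gene by a modest amount. Of the 79 genes tested, 77 rose in mLN (adjusted p under 0.05, edgeR quasi-likelihood test with Benjamini-Hochberg adjustment over all genes), against 21.8% of all genes tested, and none fell, against 23.8% of all genes. The 77 were all 47 of the large subunit and 30 of the 32 of the small subunit. At an unadjusted p under 0.05, 1 gene was lower in mLN, and DESeq2 called 77 higher and 0 lower. The median log2 fold change was 0.33 (0.33 for the large and 0.35 for the small subunit), against 0.00 over all genes tested, and when libraries were scaled to the set's own total, which forces it towards 0, the median was −0.01. In CPM the mLN libraries lay above the spleen libraries without overlap for 77 of the 79, against 25.5% of all genes, and below for 1 of the 79, against 27.5%. Without the 7 copies with an l suffix the range was narrow: the other 76 genes all rose, by 0.16 to 0.55 on the log2 scale.

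**Figure D2:**
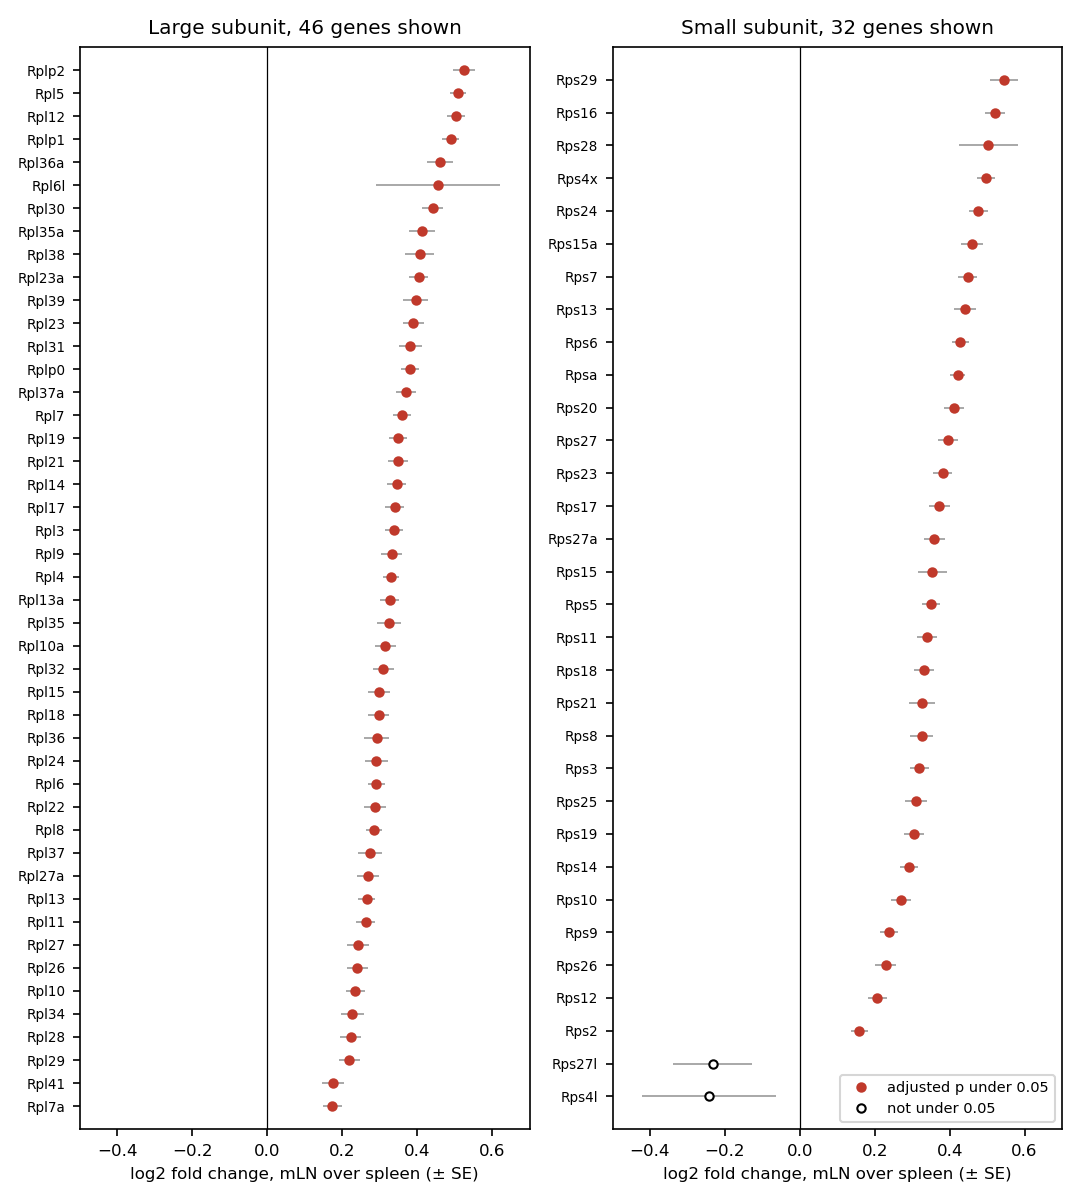
Log2 fold change of mLN over spleen (horizontal axis, ± SE of the fit) for 46 of the 47 large-subunit and all 32 small-subunit genes tested, filled where the adjusted p was under 0.05. All but Rps27l and Rps4l lie right of 0, with a median of 0.33 when scaled to all genes (−0.01 when scaled to the set's own total).

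The start of the transcript is what these genes are known to share, so the annotated RefSeq starts (build GRCm38.p6) were read for 61 of the 83 genes, which had 73 starts. A run on the coding strand that opens with C and continues in C or T to at least 8 letters lay within 50 bases of 58 of the 73 starts (79.5%), against 28.3% of all 32851 annotated starts and 32% of 75 starts of mitochondrial ribosomal protein genes. The letters CCGGAAG, on either strand, occurred from 250 bases before to 50 after the start in 35.6% of the 73 starts, 34.7% of the mitochondrial ones and 8.86% of all. AAGATGG, searched the same way and able to overlap the first motif by its AAG, occurred in 15.1% of the 73 starts, 17.3% of the mitochondrial ones and 6.34% of all. The sequences of 6 starts, 20 bases before and 20 after, show the run in capitals, for a pair of genes with large rises in mLN (Rplp2, chr7:141447631-141447670, plus strand, and Rpl5, chr5:107900508-107900547, plus strand), the S6 kinase substrate and the most abundant member (Rps6, chr4:86857348-86857387, minus strand, and Rpl13a, chr7:45128726-45128765, minus strand) and a pair with small rises (Rps12, chr10:23787190-23787229, minus strand, and Rpl7a, chr2:26910787-26910826, plus strand), 5′ to 3′ on the coding strand.

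Rplp2: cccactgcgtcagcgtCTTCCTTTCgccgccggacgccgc
Rpl5: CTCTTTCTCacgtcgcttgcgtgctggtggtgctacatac
Rps6: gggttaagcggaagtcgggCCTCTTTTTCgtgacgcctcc
Rpl13a: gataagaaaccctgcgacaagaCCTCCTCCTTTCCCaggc
Rps12: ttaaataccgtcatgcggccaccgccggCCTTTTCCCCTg
Rpl7a: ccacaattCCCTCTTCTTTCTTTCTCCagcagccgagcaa

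The 6 were chosen because the run falls inside these 40 bases. Counted from the annotated start as 0, the run of other genes with large or small rises opened farther away, at −46 in Rps16, 39 in Rpl12 and 40 in both Rpl41 and Rps2. Over the tested genes with a RefSeq start, the median log2 fold change was 0.32 for the 49 with a run in the window and 0.41 for the 8 without. These are matches of letters in a window, not measured transcript starts.

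Among the large-subunit proteins, Rplp2, Rpl12 and Rplp1 of the stalk were near the top of the range. The stalk is the mobile arm that recruits elongation factors, built of the acidic proteins Rplp1 and Rplp2 on Rplp0, with Rpl12 at its base; this and the following groups by role were drawn up with the values known. All 4 stalk genes rose, as did all 47 large-subunit genes tested, against 21.8% of all genes. Their median log2 fold change was 0.50 for the stalk and 0.33 for the large subunit. Rplp2 (ENSMUSG00000025508, chr7:141447370-141451585 in GRCm38) had 767, 798 and 803 CPM in the mLN libraries and 529, 543 and 573 CPM in the spleen libraries. The lowest mLN library was well above the highest spleen library, and the fitted log2 fold change was 0.53 (SE 0.03, edgeR adjusted p = 2.2e-19). Rpl12 had 1482, 1483 and 1417 CPM in mLN and 1022, 1038 and 1032 CPM in spleen, without overlap, a log2 fold change of 0.50 (SE 0.02). Rplp1 had 1438, 1453 and 1428 CPM in mLN and 1039, 1021 and 1017 CPM in spleen, again apart, a log2 fold change of 0.49 (SE 0.02). Rplp0, the anchor that holds the acidic pairs, was the lowest of the 4 at 0.38 (SE 0.02), with 2900, 2931 and 2710 CPM in mLN and 2199, 2193 and 2167 CPM in spleen.

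Rpl5 and Rpl11 enter the large subunit together with the 5S rRNA, and when assembly fails the same pair binds Mdm2 and releases p53. Both rose. Rpl5 (ENSMUSG00000058558, chr5:107900502-107909005) had 1848, 1809 and 1826 CPM in mLN and 1282, 1292 and 1278 CPM in spleen, a log2 fold change of 0.51 (SE 0.02, edgeR adjusted p = 1.4e-22). Rpl11 had 767, 757 and 775 CPM in mLN and 630, 647 and 640 CPM in spleen, a log2 fold change of 0.26 (SE 0.03). Libraries of a tissue lay close together for both genes, and the tissues were apart. The 9 genes for proteins around the exit tunnel, through which the new chain leaves (Rpl17, Rpl19, Rpl22, Rpl23a, Rpl26, Rpl31, Rpl35, Rpl38 and Rpl39), all rose, like every large-subunit gene tested. Their median was 0.35, with a range of 0.24 to 0.41.

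The most abundant member per length was Rpl13a, which in human myeloid cells also takes part in silencing inflammatory mRNAs. Its level was 11338 ± 594 TPM in mLN and 9114 ± 149 TPM in spleen (SD, n = 3 each), and its log2 fold change in the count test 0.33 (SE 0.02). Among the smallest rises of the large subunit were those of Rpl7a and of Rpl41, the shortest ribosomal protein. Rpl7a had 854, 870 and 866 CPM in mLN and 753, 762 and 782 CPM in spleen, a log2 fold change of 0.17 (SE 0.03), and even here the libraries of the tissues did not overlap. Rpl41 rose by 0.18 (SE 0.03). These 2 and the small-rise genes of the small subunit named further on were singled out after their values were seen.

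In the small subunit the largest rise was that of Rps29, a zinc-binding protein of the head of the subunit. Rps29 (ENSMUSG00000034892, chr12:69157722-69159186) had 516, 506 and 553 CPM in the mLN libraries and 338, 368 and 374 CPM in the spleen libraries. The tissues were well apart and the log2 fold change was 0.55 (SE 0.04, edgeR adjusted p = 1.0e-12). Rps16, whose tail reaches the decoding site, had 1407, 1372 and 1469 CPM in mLN and 962, 1019 and 980 CPM in spleen, a log2 fold change of 0.52 (SE 0.03). Rps28, beside the exit of the mRNA channel, had 467, 446 and 521 CPM in mLN and 313, 344 and 354 CPM in spleen. The spread was wider for this gene, and its log2 fold change was 0.50 with an SE of 0.08 (edgeR adjusted p = 0.0046). Its neighbour at the same exit, Rps26, rose by 0.23 (SE 0.03).

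Rps4x and Rps24, which sit in the body of the subunit, were also among the 10 largest rises. Rps4x is encoded on the X chromosome, and had 1838, 1818 and 1937 CPM in mLN and 1342, 1317 and 1302 CPM in spleen, without overlap, a log2 fold change of 0.50 (SE 0.02). The other X-linked members rose by 0.46 (Rpl36a, SE 0.04), 0.40 (Rpl39, SE 0.03) and 0.23 (Rpl10, SE 0.03). Rps24, a gene mutated in some human patients with Diamond-Blackfan anaemia, rose by 0.48 (SE 0.03), with 1043, 1016 and 1031 CPM in mLN and 723, 744 and 755 CPM in spleen. Rps19, the gene most often mutated in that anaemia, rose by 0.30 (SE 0.03).

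Rps6, the substrate of the S6 kinases, had 1672, 1652 and 1624 CPM in mLN and 1220, 1231 and 1226 CPM in spleen. The libraries of each tissue were close to each other and far from the other tissue, with a log2 fold change of 0.43 (SE 0.02, edgeR adjusted p = 9.0e-20). Rpsa, also known as the laminin receptor, rose by 0.42 (SE 0.02), and the decoding-site proteins Rps23 and Rps15 by 0.38 (SE 0.03) and 0.35 (SE 0.04). At the entry of the mRNA channel, Rps3 rose by 0.32 (SE 0.02) and Rps2 by 0.16 (SE 0.02), the smallest rise of the 77. Rps2 had 1601, 1644 and 1569 CPM in mLN and 1418, 1439 and 1457 CPM in spleen, so that the tissues were apart by a small step. Rps12, in the beak of the subunit, rose by 0.21 (SE 0.03).

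Levels per length spanned an 11.7-fold range over the 76 genes above 200 TPM, with a median of 2437 TPM over both tissues and extremes of 877 and 10226 TPM. The order of levels was nearly the same in both tissues (r = 0.990 between log2 TPM in mLN and in spleen, across genes, which share the 6 libraries). Across the same genes, the correlation of fold change with effective length was −0.11 and with level 0.12; genes are not independent replicates, and these are descriptions. Among the highest after averaging were Rpl13a, Rps27 (7898 ± 157 TPM in mLN and 6485 ± 194 TPM in spleen), Rplp1 (7278 ± 73.9 TPM in mLN and 5483 ± 163 in spleen) and Rps14 (6330 ± 32.9 TPM in mLN and 5418 ± 55.4 in spleen).

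The balance of the subunits differed slightly and was not tested. Summed large-subunit counts were 1.37, 1.37 and 1.35 times the small-subunit counts in the mLN libraries and 1.39, 1.39 and 1.39 times in the spleen libraries. All mLN libraries lay below all spleen libraries, with a mean log2 ratio of 0.446 ± 0.0138 in mLN and 0.474 ± 0.0033 in spleen (SD, n = 3 each), a difference of −0.028.

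To see which genes moved apart from the rest of the set, each library was also scaled to the summed counts of the 83 genes, so that a gene is given relative to all ribosomal protein mRNA. Against that total, 16 of the 79 genes were higher in mLN (6 large, 10 small), where 5.98% of all genes tested were higher, and 21 were lower (14 large, 7 small), where 62.4% of all genes were lower. The remaining 42 could not be called. Most genes were called on this scale, so the adjustment over all genes is lenient for the set, and calls near 0.05 are weak. Examples are Rpl6 (edgeR adjusted p = 0.049) and Rps20 (edgeR adjusted p = 0.043). The 16 higher genes included 3 of the 4 stalk genes (Rplp2 at 0.18, Rpl12 at 0.16, Rplp1 at 0.14), Rpl5 (0.16), Rps29 (0.20), Rps16 (0.17), Rps4x (0.15), Rps6 (0.08) and Rpsa (0.08). The 21 lower genes included Rpl11 (−0.08), Rps2 (−0.19), Rpl7a (−0.17), Rpl41 (−0.17), Rps12 (−0.14), Rps26 (−0.12) and Rpl10 (−0.11). Of every 1000000 ribosomal protein counts, Rps29 made up 6788 ± 370 in mLN and 5908 ± 271 in spleen, and Rps2 20738 ± 399 in mLN and 23619 ± 215 in spleen (SD, n = 3 each). Rpl5 and Rpl11 were thus called in opposite directions, as were Rps4x and Rpl10 among the X-linked genes, and these shifts were at most 0.20 on the log2 scale outside Rps27l and Rps4l.

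**Figure D3:**
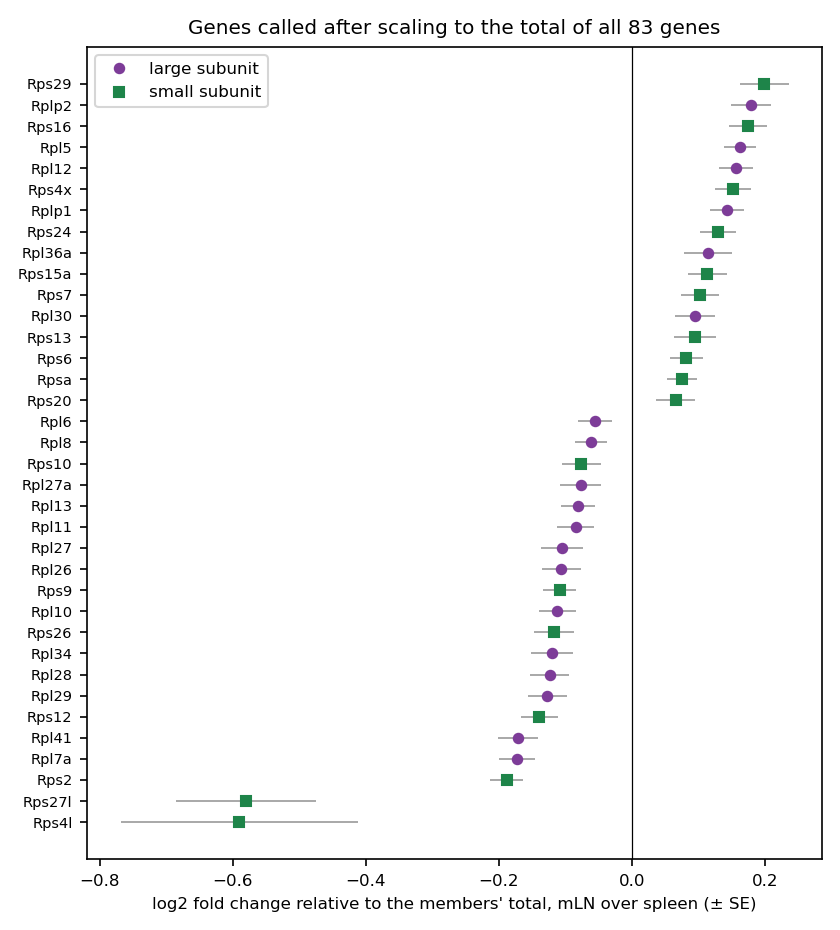
Log2 fold change of mLN over spleen relative to the summed counts of the 83 genes (horizontal axis, ± SE of the fit) for 36 of the 37 genes with an adjusted p under 0.05 on this scale, circles for the large and squares for the small subunit. Rps29 is highest at 0.20 and Rps4l lowest at −0.59; on the scale of all genes, all but Rps27l and Rps4l of them rose.

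Copies of ribosomal protein genes differed. With TMM factors Rpl6l was called higher, and Rps27l and Rps4l were not called in either direction. Rps27l, a copy of Rps27 known as a target of p53, had 21.3, 21.2 and 16.6 CPM in mLN and 22.6, 22.2 and 25.05 CPM in spleen. Each mLN library was below each spleen library, but the log2 fold change of −0.23 (SE 0.11) had an edgeR adjusted p of 0.071. It was called lower when library totals replaced TMM factors (−0.28; 17.7% of all genes were then higher and 27.4% lower, and 77 members again higher) and without mLN library 1 (−0.29) or 2 (−0.29). Per length, Rps27l amounted to 1.33, 1.33 and 1.08% of Rps27 in mLN and 1.84, 1.79 and 2.08% in spleen, so the copy was lower against its parent in all mLN libraries. Rps4l, a retroposed copy of Rps4x, had 7.87, 6.13 and 6.40 CPM in mLN and 9.20, 8.41 and 6.52 CPM in spleen, overlapping, with a log2 fold change of −0.24 (SE 0.18, edgeR adjusted p = 0.28). It amounted to 0.376 ± 0.0551% of Rps4x in mLN and 0.624 ± 0.0983% in spleen, again without overlap. Rpl6l had 9.87, 8.44 and 11.7 CPM in mLN and 7.47, 6.40 and 7.83 CPM in spleen, with a log2 fold change of 0.46 (SE 0.16, edgeR adjusted p = 0.021), and its call was lost without spleen library 2 (0.38) or mLN library 3 (0.34) and with effective lengths as an offset (0.45; 76 members were then higher, where 14.8% of all genes were higher and 17.5% lower).

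The copies known for tissue-restricted use were at the limit of detection. Rpl3l, the heart and skeletal muscle form of Rpl3, had 4 counts over the mLN libraries and 14 over the spleen libraries, and Rpl39l, the testis form of Rpl39, had 13 in mLN and 10 in spleen. Rpl10l, the testis form of Rpl10, had no counts in either tissue. Reads from such copies cannot always be told from those of the parent, and the authors' program divides them by a model, so values of copies are uncertain.

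Several genes with longer suffixes fall outside the naming rule. Most code for the same proteins or close relatives, but the annotation gives Rps3a2 and Rps3a3 as pseudogenes. Of 6 tested, 5 rose and none fell (none also at an unadjusted p under 0.05 and in DESeq2), against 21.8% of all genes higher and 23.8% lower. The median was 0.34 (0.00 relative to the 83 genes). Rps3a1, the main gene for its small-subunit protein, had 1816, 1805 and 1875 CPM in mLN and 1403, 1409 and 1420 CPM in spleen, a log2 fold change of 0.38 (SE 0.02). Its copy Rps3a2 rose by 0.45 (SE 0.09) and the Rps27 retrogene Rps27rt by 0.54 (SE 0.11). Rpl22l1 is a working copy of Rpl22, a protein that alpha-beta T cells of mice need for their development. It amounted to 31.8, 27.4 and 27.3% of Rpl22 in mLN and 28.3, 27.5 and 30.1% in spleen, overlapping, and both genes rose, by 0.30 (SE 0.05) and 0.29 (SE 0.03), while relative to the 83 genes they were at −0.04 and −0.06. Rpl36al rose by 0.31 (SE 0.04; −0.04 relative to the 83 genes) and amounted to 39.0, 46.3 and 45.9% of Rpl36a in mLN and 48.5, 46.8 and 48.4% in spleen, lower in each mLN library. Rpl7l1 had 76.5, 80.0 and 86.6 CPM in mLN and 87.4, 82.5 and 82.4 CPM in spleen, a log2 fold change of −0.06 (SE 0.05, edgeR adjusted p = 0.42), where its parent Rpl7 rose by 0.36 (SE 0.02).

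**Figure D4:**
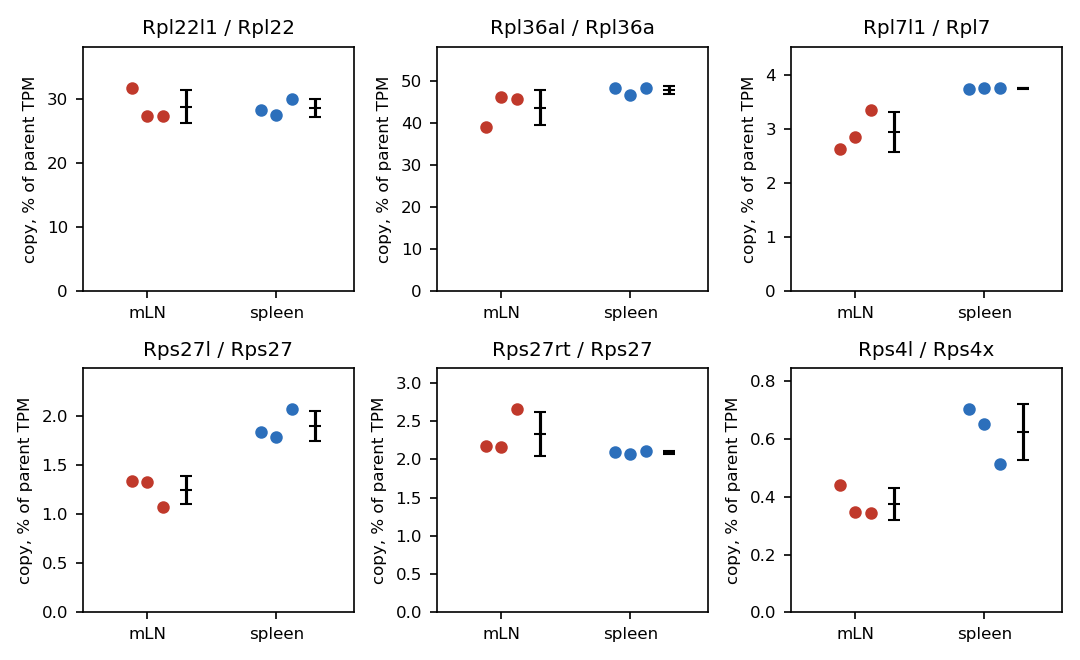
Level of a copy as a percentage of its parent gene, from TPM (vertical axes, from 0), with 1 point per library for mLN and spleen and the mean ± SD (n = 3) beside the points. Rps27l, Rps4l, Rpl7l1 and Rpl36al are lower against their parents in all mLN libraries, Rps27rt is higher, and Rpl22l1 overlaps.

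Some ribosomal proteins have other symbols. Rack1, a signalling scaffold on the small subunit, rose by 0.31 (SE 0.02; −0.03 relative to the 83 genes). Fau, which makes small-subunit protein eS30 as a fusion with a ubiquitin-like protein, had 710, 708 and 645 CPM in mLN and 624, 655 and 651 CPM in spleen. The tissues overlapped, and its log2 fold change of 0.10 (SE 0.03, edgeR adjusted p = 0.010; −0.25 relative to the 83 genes) was no longer called without spleen library 1 (0.07), mLN library 1 (0.08) or mLN library 2 (0.08), with library totals (0.05) or with effective lengths as an offset (0.07).

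Other genes of translation and ribosome assembly were read from lists. Of 36 factors for rRNA transcription and subunit assembly, 29 rose in mLN and none fell (none also at an unadjusted p under 0.05, and none in DESeq2, which called 28 higher), against 21.8% of all genes higher and 23.8% lower, with a median log2 fold change of 0.23 and of −0.11 relative to the 83 genes. With effective lengths as an offset, 18 of the 36 were called higher, against 14.8% of all genes. The largest rises were those of Rrp1b, a nucleolar protein (0.59, SE 0.06), and Tsr1, which acts in late assembly of the small subunit (0.47, SE 0.05). Rrp1b had 70.9, 75.3 and 69.2 CPM in mLN and 50.2, 44.4 and 48.4 CPM in spleen, without overlap. A list of elongation and release factor genes also held Eef2k and Eef1e1, which are neither. Of its 10 tested genes, 7 rose and 2 fell (21.8 and 23.8% of all genes), with a median of 0.16 and of −0.19 relative to the 83 genes. Eef1a1, which brings aminoacyl-tRNA to the ribosome and has a TOP tract itself, had 11735, 11834 and 11736 CPM in mLN and 9279, 9178 and 9140 CPM in spleen, a log2 fold change of 0.36 (SE 0.02). Its exchange factor Eef1b2 rose by 0.46 (SE 0.03). Eef2k, the kinase that inhibits elongation factor 2, fell by 0.66 (SE 0.09), with 24.5, 24.2 and 21.2 CPM in mLN and 37.6, 36.4 and 36.7 CPM in spleen, and Eif5a, which frees ribosomes stalled at prolines, fell by 0.16 (SE 0.03).

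Of 8 other genes with TOP mRNAs, 5 rose and 1 fell (21.8 and 23.8% of all genes), with a median of 0.18 (−0.17 relative to the 83 genes). Tpt1, whose product is the translationally controlled tumour protein, had 2884, 2920 and 2920 CPM in mLN and 1998, 2018 and 2061 CPM in spleen, a log2 fold change of 0.52 (SE 0.02). The nucleolar chaperone Npm1 rose by 0.30 (SE 0.03; −0.05 relative to the 83 genes), and the histone chaperone Nap1l1 fell by 0.22 (SE 0.03). Of 18 genes that control growth and ribosome synthesis, 6 rose and 1 fell (21.8 and 23.8% of all genes), with a median of 0.01 (−0.33 relative to the 83 genes). The count lower was 4 with library totals (27.4% of all genes) and 2 with a filter at 1 CPM, with effective lengths or without spleen library 3. Rps6ka3, a growth-factor-activated kinase of the S6 kinase family (RSK2), rose by 0.40 (SE 0.04) and Myc by 0.35 (SE 0.04). Eif4ebp1, the mTOR target that blocks cap-dependent initiation, fell by 0.79 (SE 0.14), with 8.21, 7.42 and 8.99 CPM in mLN and 13.9, 14.9 and 13.5 CPM in spleen.

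The mitochondrial ribosome, which translates the mitochondrial genome, has its own set of nuclear-encoded proteins. Of its 78 genes, all tested, 10 rose and 3 fell (21.8 and 23.8% of all genes), with a median log2 fold change of 0.04 and of −0.31 relative to the 83 cytosolic genes, and DESeq2 called 6 higher and 1 lower. Their summed level was 1977 to 2000 CPM in mLN and 1924 to 1938 CPM in spleen. Mrps6 (0.50, SE 0.14) and Mrpl58 (0.43, SE 0.09) rose most. Mrpl16 (−0.27, SE 0.10) and Mrps7 (−0.26, SE 0.08) fell most, but Mrpl16 was no longer called without spleen library 2 (−0.26) or 3 (−0.25) or mLN library 1 (−0.23) or 2 (−0.26), in DESeq2 (−0.27) or with effective lengths (−0.27). Mrps7 was no longer called without spleen library 2 (−0.21) or with effective lengths (−0.17).

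**Figure D5:**
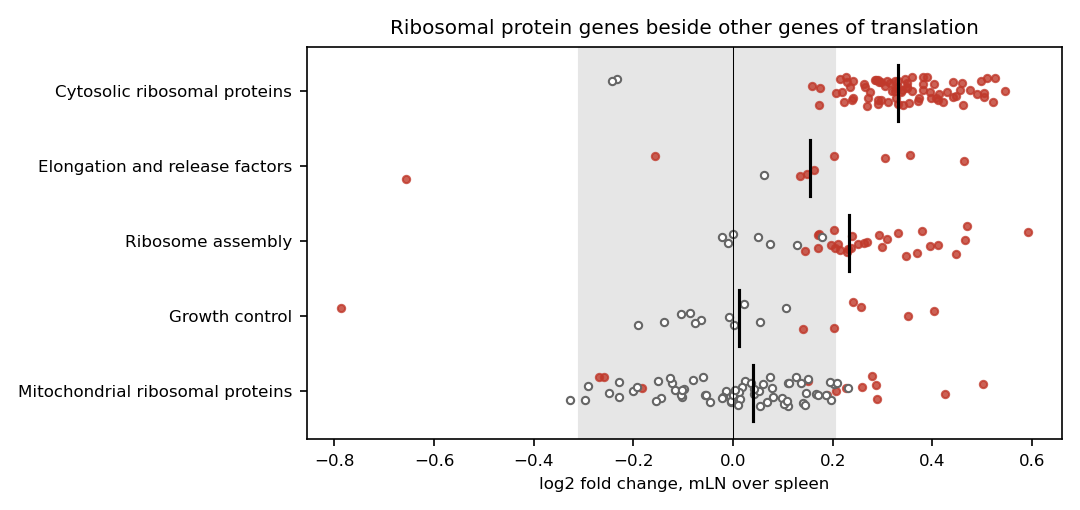
Log2 fold change of mLN over spleen (horizontal axis) of every tested gene of the cytosolic ribosomal protein set and 4 other lists, filled where the adjusted p was under 0.05, with a vertical bar at each list's median; the grey band runs from the first to the third quartile of all genes tested. The medians are 0.33 for cytosolic ribosomal proteins, 0.16 for elongation and release factors (with Eef2k and Eef1e1), 0.23 for ribosome assembly, 0.01 for growth control and 0.04 for mitochondrial ribosomal proteins. Relative to the set's own total they are −0.01, −0.19, −0.11, −0.33 and −0.31.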

How the data were processed

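Each library had 1 deposited gene table. Per the file headers, it holds an expected count, an effective length and a TPM value per gene. STAR, RSEM and the build mm10 are named in the submitters' processing notes, and their versions, the annotation and the strand setting were not given in the sources used here. Expected counts, as deposited by the authors, are estimates that split reads shared by several genes, so close copies and pseudogenes of ribosomal protein genes make single values uncertain, and polyadenylated selection leaves rRNA unmeasured. The TPM values deposited by the authors sum to 1000000 per library. Symbols and coordinates came from GENCODE M21 (GRCm38, 1-based, whole gene), which named 55227 of 55487 IDs. Promoter windows came from RefSeq.

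Expected counts were rounded. Genes were kept with filterByExpr, libraries scaled with TMM factors, and mLN compared with spleen in edgeR 4.0.16 (R 4.3.3) with its robust quasi-likelihood test and no term besides tissue, with Benjamini-Hochberg adjustment over all 14427 genes tested and a threshold of 0.05. Libraries held 12584244 to 18119551 counts. CPM are TMM-scaled. Shares of counts, ratios of subunits and ratios of copies are descriptions without a test. No sample was left out, and no libraries were identical or agreed within counting noise (mean squared deviation 3.05 to 3.81 times that of counting).

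The genes, the lists and the tests were chosen with earlier results of these data known. The text names the 10 largest rises and falls without overlap, the 5 highest and 3 lowest members in TPM, all copies and their parents, Rps6, and up to 2 rises and 2 falls of each other list, of which a few are not reported here; the groups by role, and the genes named in them, were drawn up after values were seen. Alternatives were RLE factors, library totals, TMM factors without the set, the set's total as library size, DESeq2 1.42.0, no filter and a filter at 1 CPM, effective lengths as an offset, pseudogene rows summed into their parents, the replicate number as a block, TPM in place of counts for shares and subunit ratios, CPM in place of TPM for copies, and leaving out each library.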

Additional observations from a re-analysis of the deposited data

How the results depend on the processing

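Under all alternatives but the set's own total as library size, 76 or 77 of the 79 genes were called higher in mLN. Over all genes, 2129 to 3175 were then higher and 2527 to 3956 lower, of 13149 to 24078 tested. With the set's total, 16 were higher and 21 lower (5.98 and 62.4% of all genes). The count called lower, 0, became 1 (Rps27l) with library totals. Leaving out 1 library gave 76 to 77 higher and 0 to 1 lower, and a share difference of 1.38 to 1.45 percentage points (1.41 with all). That difference was 4.29 points of TPM and 1.42 with pseudogene rows summed. The log2 ratio of the subunits differed by −0.03 to −0.02 when a library was left out. Scaled to the set's total, 35 of the 79 genes were above 0, against 77 with TMM factors. Genes that turned below 0, in and outside the set, included Rpl13a (−0.020), Rps14 (−0.055), Rpl22l1 (−0.043), Rpl22 (−0.059), Rpl36al (−0.037), Rpl3 (−0.0093), Rpl10 (−0.11), Fau (−0.25), Rack1 (−0.032) and Npm1 (−0.047). That scaling moves the median of all genes to −0.35, and library totals move it to −0.05.

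Same-numbered mLN and spleen libraries did not deviate together (r = 0.027, 0.028 and −0.008), so the numbers were not taken to pair them. With the replicate number as a block, 77 members were called higher and 0 lower, where 3073 and 3382 of all 14427 genes were.

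Of the 78 mitochondrial ribosomal protein genes, 10 rose and 3 fell (21.8 and 23.8% of all genes). The rises were 4 to 6 with library totals, DESeq2, no filter, effective lengths, or without mLN library 1 or any 1 of the spleen libraries. Over all genes, 2129 to 3038 of 14427 to 24078 tested were then higher. Falls came to 1 with DESeq2, effective lengths or without spleen library 2 or mLN library 1, where 2527 to 3305 of all genes were lower. The filter left out Rpl3l, Rpl39l, Rpl10l and Rpl32l; with no filter, all but Rpl10l, which had no counts, were tested, and none of these 3 was called.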

Other observations

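Besides the 83 genes, 298 rows carry the name of a pseudogene (suffix -ps) of one of the set. The annotation gives some of these rows, among them Rpl9-ps6, Rpl10-ps3 and Rps12-ps3, as protein coding. Of the 298 rows, 172 had no counts. Together the 298 rows held 0.755 to 0.812% as many counts as the 83 genes in the mLN libraries. In the spleen libraries they held 0.771 to 0.809%, an overlapping range. Of the counts in the 298 rows, 50.7% lay in 4 rows (Rps2-ps10, Rpl3-ps1, Rps6-ps4 and Rps23-ps1). Of the 39 rows tested, 16 were called higher in mLN and 0 lower (edgeR; 0 also at an unadjusted p under 0.05, and 14 higher and 0 lower in DESeq2), against 21.8% of all genes higher and 23.8% lower, with a median log2 fold change of 0.40 and of 0.05 relative to the 83 genes. With effective lengths as an offset, 8 were called higher, against 14.8% of all genes. Rpl3-ps1 had 63.4, 66.4 and 59.9 CPM in mLN and 44.7, 47.9 and 47.1 CPM in spleen, without overlap, a log2 fold change of 0.44 (SE 0.07), where Rpl3 rose by 0.34 (SE 0.02). Rps2-ps10 had 123, 136 and 136 CPM in mLN and 125, 106 and 113 CPM in spleen, overlapping, a log2 fold change of 0.20 (SE 0.05), where Rps2 rose by 0.16 (SE 0.02). How far these rows hold reads of their parents was not tested.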
